A study of Mus musculus with 6 samples.

Results

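Neural crest specifiers are transcription factors that act in the embryo at the edge of the neural plate. There they mark the cells that become neural crest, a migratory population that gives rise to glia, peripheral neurons, pigment cells and part of the skeleton of the face. Zic1, Msx1, Msx2, Pax3, Pax7 and the AP-2 factors (Tfap2a, Tfap2b, Tfap2c) act first at this border in response to Wnt, BMP and FGF signals, and Foxd3 and Ets1 follow in the premigratory crest, where Foxd3 helps to keep crest cells multipotent. The set held these 10 genes, taken by name, out of 18194 genes with a probe set of their own on the array. All probe sets annotated to exactly 1 of them were used, which gave 24 probe sets out of 34958 annotated to a single gene. Of the 24, 11 probe sets of 5 genes (Foxd3, Pax3, Tfap2a, Ets1 and Msx1) passed the filter on low values, and 13 did not.

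The arrays compared NCSC, called neural crest stem cells by the submitters, with MSC, called mesenchymal stem cells, at 3 arrays each. Both were stromal cells cultured from the bone marrow of adult female mice aged 10 weeks, of C57BL/6 x SV129 background and of the genotype wnt1/CRE-R26R-lacZ. All the mice thus carried a Cre recombinase under Wnt1 sequences, which are active in the dorsal neural tube from which the crest arises, and a lacZ reporter at the Rosa26 locus that Cre switches on permanently. Cells of both kinds received no treatment and went through at least 5 passages in Mesencult medium, after which clones were chosen. The design text gives 3 biological replicates of each cell type. The labels do not say how many clones or mice these stand for, so cell type and clone cannot be told apart if each type was 1 clone. The p-values rest on variation between the replicates, and whether that is variation between mice or clones is not known.

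Values are GCRMA intensities taken to log2, where 1 unit is a 2-fold difference. The lowest value in the table was 2.12 on the log2 scale, and on each array 33.5% to 34.5% of probe sets had it. Testing was limited to probe sets with a log2 value above 4 (the limit) on 3 or more of the 6 arrays. The median of the kept probe sets was between 8.98 and 9.11 on every array. NCSC 3 and MSC 2 stood somewhat apart from the other arrays of their type. Of the kept probe sets, 4.98% and 4.86% differed by more than 2-fold between NCSC 3 and the other NCSC arrays, against 0.486% between NCSC 1 and NCSC 2. For MSC 2 the shares were 3.37% and 3.34%, against 0.519% between MSC 1 and MSC 3. Between arrays of different types 27.3% to 31.1% of probe sets were more than 2-fold apart.

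The cell type labels were checked against their markers. Of 6 crest and glial markers measured, Sox10, Ngfr, Erbb3 and Cdh19 were kept and called higher in NCSC, while Gfap stayed under the limit on all arrays. S100b was at 7.72 and 7.29 on NCSC 1 and NCSC 2 but at 2.15 on NCSC 3 and on all MSC arrays, and it is singled out here after its values were seen. Of 8 mesenchymal stromal markers 7 were kept, and 4 of them were called higher and 3 lower in NCSC. As log2 differences NCSC minus MSC, the lower ones were Vcam1 (-4.04 ± 0.08, SE), Pdgfra (-3.17 ± 0.28) and Itgb1 (-0.55 ± 0.10). The higher ones were Eng (4.69 ± 0.25), Pdgfrb (0.62 ± 0.13), Cd44 (0.31 ± 0.08) and Nt5e (at least 22.8-fold). The adjusted p of Cd44 reached 0.0746 in other settings. Thy1, a defining stromal antigen, was at the lowest value on all arrays, and Nt5e, another one, was under the limit on all 3 MSC arrays.

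Expression of the set split into 3 patterns. Foxd3, Pax3, Tfap2a and Ets1 were higher in NCSC, Msx1 was low in both cell types and slightly lower in NCSC, and Pax7, Tfap2b, Tfap2c, Msx2 and Zic1 were under the limit of 4 on all 6 arrays. The Msx1 difference was called in only 11 of 17 alternative settings. A probe set was called at an adjusted p under 0.05 in limma's test, with p-values adjusted over all 21004 kept probe sets. Among the kept member probe sets 10 were called higher and 1 lower in NCSC. Of all kept probe sets 58.9% were called, made up of 32% called higher and 26.9% called lower in NCSC, so a call by itself sets no gene apart here. The share of all kept probe sets whose NCSC and MSC arrays do not overlap was not counted, so non-overlap sets none apart either. Moreover, 4 of the 11 passed the filter only through the NCSC arrays, or through these and 1 MSC array, and so had little room not to differ. The other 7 were above the limit on all arrays. A value just above the limit need not be a measured level, since the keratinocyte gene Krt5 read 5.05 on all 6 arrays. Probe sets whose names end in _s_at or _a_at can match several transcripts, and an _s_at probe set can match related genes too. In these bulk cultures, fewer cells that express a gene and less RNA of it per cell cannot be told apart.

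**Figure D1:**
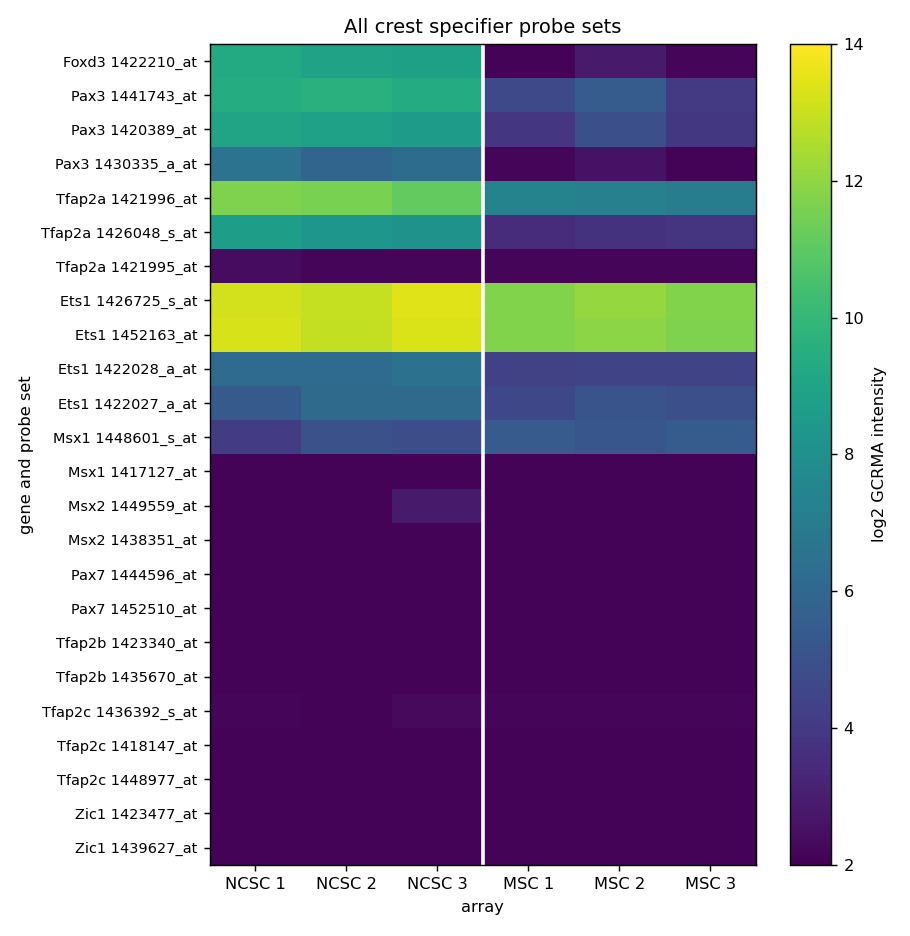
Log2 GCRMA intensity (colour) of all 24 crest specifier probe sets (rows) on the 3 NCSC and 3 MSC arrays (columns). Foxd3, Pax3, Tfap2a and Ets1 are brighter on the NCSC arrays, and the rows of Pax7, Tfap2b, Tfap2c, Msx2 and Zic1 stay under 4 on every array.

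The stretch before the transcription start was looked up for the set in the RefSeq table of the mouse assembly GRCm38.p6, and 7 of the 10 genes had at least 1 window there. The 250 bases upstream of the start are shown for Foxd3, Msx1 and Zic1, so that the 3 expression patterns can be set beside their promoters. Foxd3 was higher in NCSC, Msx1 was slightly lower in a call lost in several settings, and Zic1 was at the lowest value on all arrays. The Foxd3 window lies at chr4:99656049-99656298 on the plus strand, the Msx1 window at chr5:37824586-37824835 on the minus strand and the Zic1 window at chr9:91365769-91366018 on the minus strand. Capitals mark matches to the motifs searched.
Foxd3: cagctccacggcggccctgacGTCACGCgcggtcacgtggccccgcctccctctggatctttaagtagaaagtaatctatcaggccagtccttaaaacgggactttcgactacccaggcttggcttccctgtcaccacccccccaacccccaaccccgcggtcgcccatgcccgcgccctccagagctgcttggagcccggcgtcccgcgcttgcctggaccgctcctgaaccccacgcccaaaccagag
Msx1: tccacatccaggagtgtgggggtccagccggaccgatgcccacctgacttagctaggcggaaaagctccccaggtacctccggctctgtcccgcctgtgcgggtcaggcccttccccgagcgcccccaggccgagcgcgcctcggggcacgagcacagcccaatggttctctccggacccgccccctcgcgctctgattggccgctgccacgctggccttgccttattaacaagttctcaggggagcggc
Zic1: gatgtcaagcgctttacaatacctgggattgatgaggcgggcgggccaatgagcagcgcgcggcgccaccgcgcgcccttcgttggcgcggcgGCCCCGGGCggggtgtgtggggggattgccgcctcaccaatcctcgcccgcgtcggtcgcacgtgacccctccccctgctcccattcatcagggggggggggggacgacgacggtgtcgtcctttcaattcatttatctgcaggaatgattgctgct

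All 3 windows were rich in G and C, at 65.6% for Foxd3, 68% for Msx1 and 66% for Zic1, against a median of 52.4% over 32851 windows of the same length. They held 21, 20 and 27 CG dinucleotides, against a median of 6. Pax7, at the lowest value on all arrays, was nearly as rich at 65.2%, and Msx2, under the limit on all arrays, was at 61.6%. Tfap2a, which was higher in NCSC, had 47.6% and 60.4%, and Tfap2b, which was at the lowest value on all arrays, had 46.4%. The windows of Pax7, Tfap2a and Tfap2b are not outside the annotated span of their gene, unlike the others. Both strands were searched for GCCNNNGGC (AP-2), GTCACGC (the paired domain of Pax proteins), TGTTTA (forkhead), TAATTG (homeodomain) and CCGGAA (ETS). In the Foxd3 window the paired-domain letters occurred once, at position -229 relative to the start, and 1.78% of all windows hold them. The Zic1 window held the AP-2 letters once, at position -157, as do 13.7% of all windows, and the Msx1 window held none of the 5 motifs. Among the windows not shown, the homeodomain letters occurred in the Tfap2a window of 47.6%, at -208, and in that of Tfap2b, at -206. Forkhead and ETS letters were each found in 12% of all windows and the homeodomain letters in 7.17%. These matches describe letters and do not show binding.

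Foxd3, a forkhead repressor on chromosome 4, showed the largest difference of the set. Its single probe set (1422210_at) had log2 intensities of 9.33, 8.90 and 8.84 on the NCSC arrays, against 2.12, 2.88 and 2.16 on the MSC arrays. All NCSC arrays lay far above the limit and all MSC arrays below it, with a gap of 5.96 between the nearest arrays. Since the MSC values give only an upper limit, the difference is stated as a bound, and Foxd3 was at least 32.5-fold higher in NCSC. The fitted difference of 6.63 ± 0.25 (SE, limma adjusted p = 7.16e-06) was the 132nd largest rise of the 21004 kept probe sets, but it rests on values under the limit. The probe set passed the filter only through the NCSC arrays and so had little room not to differ.

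Pax3, a paired-box and homeobox factor on chromosome 1 that is needed for melanocyte and peripheral nerve development, was read by 3 probe sets that all rose. The brightest (1441743_at) was at 9.44, 9.63 and 9.37 in NCSC, against 4.65, 5.51 and 4.02 in MSC, a difference of 4.76 ± 0.36 (SE, adjusted p = 0.000135). The size of that difference rests on MSC values near the limit. A second (1420389_at) was at 8.99, 8.86 and 8.58 in NCSC and at 3.88, 4.91 and 3.92 in MSC, with 1 MSC array above the limit, and it differed by 4.57 ± 0.30 (adjusted p = 7.35e-05). For the third (1430335_a_at), with 6.55, 5.91 and 6.26 in NCSC against 2.15, 2.58 and 2.12 in MSC, the rise was at least 4.72-fold. Its limma adjusted p of 2.91e-05 is that of the fit without this bound, to MSC values under the limit. The third probe set passed the filter only through its NCSC arrays, so its groups could not overlap and it had little room not to differ. In the first and the second, where MSC arrays rose above the limit, MSC 2 was the highest of them. Without MSC 2 and NCSC 3 the differences of the first and the second probe set were 5.20 and 5.02.

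The spread of Pax3 between MSC arrays was wide, with an SD of 0.75 for the brightest probe set, against 0.13 between NCSC arrays and a median SD of 0.134 between MSC arrays over all kept probe sets. These spreads are compared at unlike intensities, since the MSC values of this probe set lay near the limit, far under the median of all kept probe sets. MSC 2 was the highest MSC array in 7 of the 10 member probe sets called higher in NCSC, a share of 70%. Several of these read the same gene, and some have MSC values under the limit. The share was 40.6% for kept probe sets called at least 2-fold higher in NCSC and 33.5% for all kept probe sets. It was so in 2 of the 4 kept crest and glial markers. NCSC 3 was the lowest NCSC array in 5 of the 10 member probe sets called higher in NCSC, a share of 50%. The same held for 58.4% of the kept probe sets called at least 2-fold higher in NCSC, for 42.4% of all kept probe sets and for 3 of the 4 kept crest and glial markers. Without MSC 2 and NCSC 3, a setting chosen after seeing the data, 10 of the 11 kept member probe sets were called, all but that of Msx1.

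Tfap2a, the AP-2 factor required for crest induction and for the cranial skeleton, lies on chromosome 13 and had 2 probe sets that rose and 1 that was not measurable. The brightest (1421996_at) was at 11.68, 11.60 and 11.12 in NCSC, against 7.35, 7.24 and 7.09 in MSC, and differed by 4.24 ± 0.17 (SE, adjusted p = 9.64e-06), which is 18.9-fold. MSC were thus clearly above the limit for Tfap2a, unlike for Foxd3. The second (1426048_s_at) was at 8.66, 8.30 and 8.13 in NCSC, against 3.53, 3.75 and 3.83 in MSC, at least 20.6-fold higher. The limma adjusted p of 5.38e-06 is again that of the fit without the bound. This second probe set passed the filter only through its NCSC arrays, so its groups could not overlap and it had little room not to differ. The third (1421995_at) stayed between 2.19 and 2.42 on all 6 arrays and shows no difference that could be read.

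No signal above background was read for the paralogs of Tfap2a, which does not show that they are absent, since 1 probe set of Tfap2a itself was under the limit. Tfap2b, which in the embryo overlaps with Tfap2a in crest and its sympathetic derivatives, was at the lowest value on all arrays in both of its probe sets. Of the 3 probe sets of Tfap2c, an AP-2 factor of trophoblast, germ cells and the early ectoderm, 2 were at the lowest value throughout and the other reached no more than 2.29. Tfap2d and Tfap2e, outside the set, were also at the lowest value on all arrays.

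Ets1, which in chick cooperates with other factors to launch cranial crest migration and which is also abundant in blood and endothelial cells, lies on chromosome 9 and was well above the limit in both cell types. Its brightest probe set (1426725_s_at) was at 13.16, 12.96 and 13.41 in NCSC, against 11.74, 12.09 and 11.74 in MSC. The difference was 1.32 ± 0.16 (SE), or 2.50-fold (adjusted p = 0.000785). A second bright probe set (1452163_at) was at 13.27, 12.88 and 13.34 in NCSC and 11.71, 11.91 and 11.69 in MSC, and differed by 1.39 ± 0.15 (adjusted p = 0.000474). The bright pair agreed in direction and nearly in size.

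A pair of dim Ets1 probe sets differed the same way. The first (1422028_a_at) was at 6.19, 6.21 and 6.54 in NCSC, against 4.33, 4.46 and 4.46 in MSC, and differed by 1.90 ± 0.12 (SE, adjusted p = 6.36e-05). Its readings on MSC 2 and MSC 3 were identical and near the limit, so they may be background. The size of the difference and its SE rest on them. The other (1422027_a_at) was at 5.42, 6.13 and 6.17 in NCSC and at 4.59, 5.10 and 4.92 in MSC, a difference of 1.03 ± 0.24 (adjusted p = 0.0122). Its groups were only 0.32 apart, and its call was lost without the filter on low values (adjusted p = 0.0707, over a range of 0.00398 to 0.0707 in all settings).

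**Figure D2:**
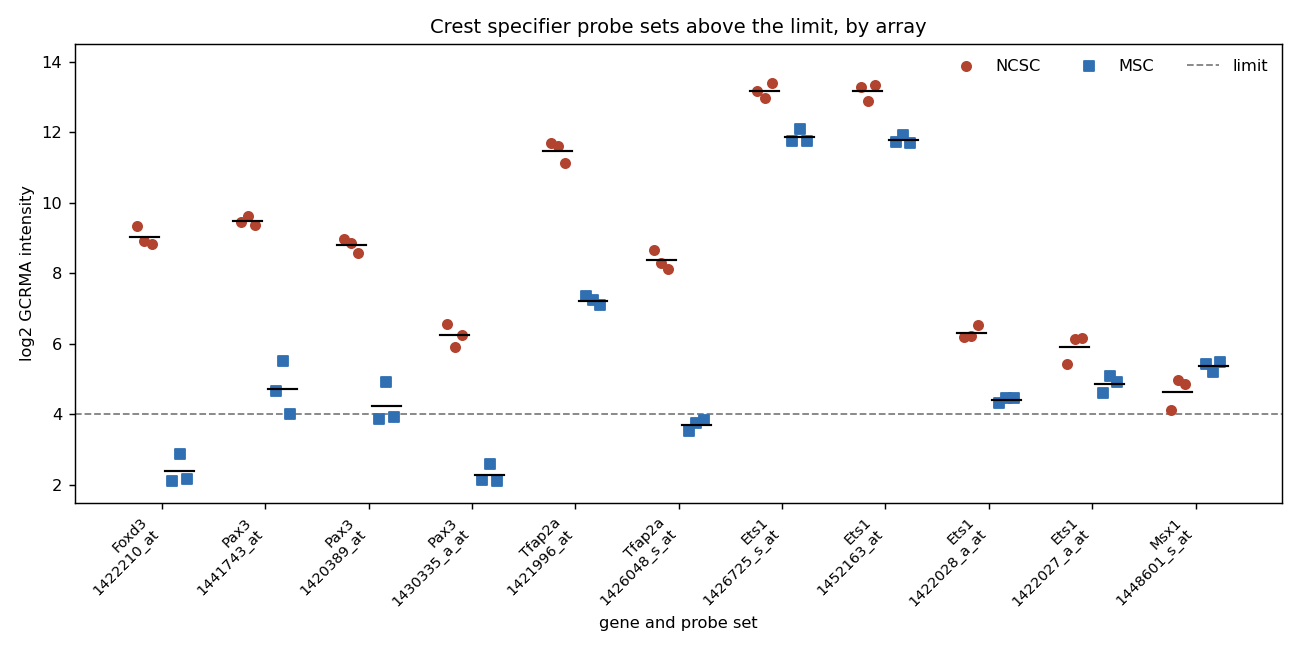
Log2 GCRMA intensity (vertical axis) of the 11 kept crest specifier probe sets on each array, with NCSC as circles to the left, MSC as squares to the right, group means as bars and the limit of 4 as a dashed line. The MSC values of Foxd3 lie under the limit, and Ets1 is well above it in both cell types in its bright pair of probe sets.

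Blood cell markers were examined because Ets1 is abundant in lymphocytes. Of 10 such markers measured 4 were kept, of which Laptm5 (5.40 ± 0.69, SE), Lyz2 (1.97 ± 0.18) and Fcer1g (0.79 ± 0.23) were called higher in NCSC and Csf1r was not called. Cd14 pointed the other way, at 2.19, 2.16 and 2.19 in NCSC against 4.63, 3.96 and 5.15 in MSC, and was not tested. The summed linear intensity of the 10 markers was between 1445 and 2426 on the NCSC arrays and between 204 and 247 on the MSC arrays, and on the NCSC arrays it came mostly from Laptm5. The defining blood cell markers Ptprc, Itgam and Cd3e were at the lowest value on all arrays, and Adgre1 and Tyrobp did not exceed 2.13 and 2.36. Fcer1g was not called without the filter, without NCSC 1 or without NCSC 2 (adjusted p = 0.118, 0.0803 and 0.0553, over a range of 0.0118 to 0.118 in all settings). Of 8 endothelial markers 0 were kept, with Pecam1, Cdh5, Kdr, Tek, Tie1 and Emcn at the lowest value on all arrays.

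Msx1, a homeobox repressor downstream of BMP signals in the border, limb and tooth, lies on chromosome 5 and was the only member called lower in NCSC. Its probe set 1448601_s_at was at 4.12, 4.97 and 4.86 in NCSC, against 5.43, 5.20 and 5.49 in MSC. All values were low, the arrays of the groups were 0.24 apart at the nearest, and NCSC 1 was the lowest. The difference was -0.73 ± 0.24 (SE, 95% confidence interval -1.31 to -0.14), or 1.66-fold (adjusted p = 0.0398). The call was lost without MSC 1, MSC 2 or MSC 3 (adjusted p = 0.107, 0.0601 and 0.114), without MSC 2 and NCSC 3 together (0.0643) and without the filter (0.163), within a range of 0.0101 to 0.163 over all settings. The differences without MSC 1, MSC 2 and MSC 3 were -0.70, -0.81 and -0.67, and -0.92 without MSC 2 and NCSC 3. Without NCSC 1 the difference was -0.47 and still called. The other Msx1 probe set (1417127_at) was at the lowest value on all arrays, so the fall rests on 1 probe set near the limit.

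**Figure D3:**
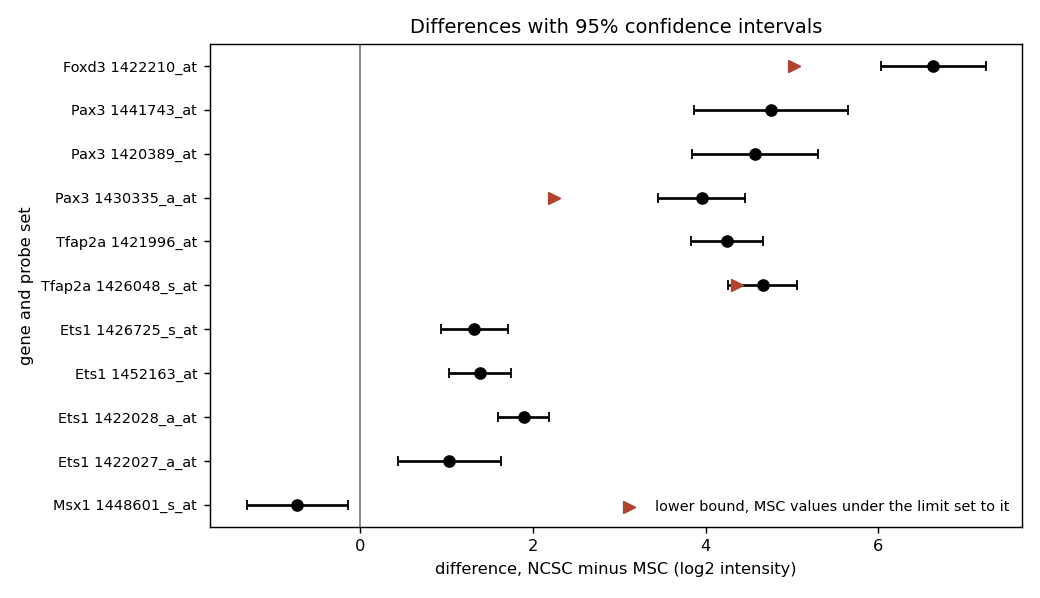
Difference NCSC minus MSC in log2 intensity (horizontal axis) for the 11 kept crest specifier probe sets, with 95% confidence intervals of the limma fit, and triangles for the lower bound where all MSC arrays were under the limit of 4. Foxd3, Pax3, Tfap2a and Ets1 lie right of 0 and Msx1 lies left of it, with an interval of -1.31 to -0.14.

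The remaining border factors were not measurable in either cell type. Zic1, a zinc finger factor that acts with Pax3 to induce crest in frog embryos, Pax7, the Pax3 paralog used by the crest of chick and by muscle stem cells, and Tfap2b were at the lowest value on all 6 arrays in all their probe sets. Msx2, the Msx1 paralog of the skull vault, was at the lowest value in 1 probe set (1438351_at), while the other (1449559_at) read 2.13, 2.13 and 2.86 in NCSC, against 2.13 on each MSC array. In all, 10 of the 24 member probe sets were at the lowest value on every array, and 30.1% of all probe sets other than controls were so. Such a reading says that the signal was not above background on these arrays and gives no fold.

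Cell types other than crest that use these factors were looked at through their markers. Of 8 skeletal muscle markers, the cells of Pax7 and Pax3 outside the crest, 7 were not kept, with Myod1, Myf5, Myog and Myf6 at the lowest value on all arrays, and Acta1 was called lower in NCSC, at 4.64 on each NCSC array against 7.95, 8.26 and 8.15 in MSC. The NCSC readings of Acta1 were identical, and no size of the difference is given. The summed intensity of the muscle list was 58.7 to 59.8 in NCSC and 281 to 341 in MSC, where Acta1 made up most of it. Of 10 epithelial and keratinocyte markers, the cells of AP-2 factors outside the crest, only Krt5 was kept, at the same value of 5.05 on all arrays, and the summed intensity was 78.6 to 81 in NCSC and 77.1 to 80.4 in MSC. Among 5 osteoblast markers measured, cells in which Msx2 is used, Phex (NCSC lower by a factor of 6.48 or more) was the single kept one and Sp7 was at the lowest value on all arrays, with sums of 24.6 to 25.6 in NCSC and 101 to 143 in MSC, most of the MSC sums from Phex. For the lists below, each gene is given by its kept probe set with the highest mean, and over 10501 genes taken in this way 34.1% were called higher and 28.6% lower in NCSC, with a median difference of 0.06.

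Other genes of the members' families were mostly under the limit as well, and of those kept Foxd2 differed in the direction of its relative Foxd3 while Fli1 and Pax9 differed in the opposite direction from Ets1 and Pax3. Of 18 with a probe set 4 were kept, 1 higher, 2 lower and 1 not called, with a median difference of -1.78. Fli1, an ETS factor of blood and endothelium, was at 3.71, 3.81 and 5.19 in NCSC, against 9.43, 9.65 and 9.43 in MSC, a difference of -5.27 ± 0.40 (SE, adjusted p = 0.000134). The size of that difference rests in part on NCSC 1 and NCSC 2, which were under the limit. Ets2 was not called (0.38 ± 0.26, adjusted p = 0.251). Pax9, a paired-box factor of the pharynx and the vertebral column, read 2.12, 2.13 and 2.15 in NCSC against 6.00, 6.04 and 6.16 in MSC, a fall by a factor of 4.19 or more. Foxd2, a relative of Foxd3, rose by 1.54 ± 0.11, to 5.82, 5.72 and 5.83 in NCSC against 4.40, 4.05 and 4.29 in MSC. Zic2, Zic4, Zic5 and Msx3 stayed under the limit on all arrays.

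Regulators that work beside the specifiers at the border differed by gene. Of 18 measured 12 were kept, 7 higher, 4 lower and 1 (Id2) not called, with a median difference of 0.34. Among the higher ones, Hes1 and Nr2f2 were called at limma adjusted p = 0.0356 and 0.0485, which reached 0.108 and 0.147 in other settings. Id4, of the Id proteins that block bHLH factors, was at least 54.8-fold higher in NCSC, at 9.56, 9.83 and 9.94 against 3.02, 3.94 and 3.22 in MSC, whereas its relatives Id1 (-0.56 ± 0.14) and Id3 (-1.18 ± 0.13) were called lower. The call of Id1 was lost without NCSC 1 (adjusted p = 0.0561) and without the filter (0.0638), in a range of 0.00673 to 0.0638. The zinc finger factor Gata2 rose by 1.89 ± 0.26 (SE), and Gata3, its paralog, fell by a factor of 7.18 or more, to 2.13, 2.91 and 2.94 in NCSC against 7.17, 6.50 and 6.87 in MSC. The LIM-domain adaptor Lmo4 rose by 1.58 ± 0.13, and Myc, a growth regulator that also acts at the crest border, was lower (-1.19 ± 0.25). Mycn was above the limit on NCSC 2 and NCSC 3 (5.24 and 5.46) but not on NCSC 1 (3.22) or the MSC arrays (3.00 each), and so was not tested.

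Regulators of crest derivatives were kept in 5 of 14 cases, and 4 of these were called higher and 1 lower in NCSC (median difference 2.07). Pou3f1, which times Schwann cell myelination, was at least 4.66-fold higher, at 6.16, 5.84 and 6.67 in NCSC against 2.12, 2.13 and 2.12 in MSC. Dlx2, a homeobox factor of the crest in the pharyngeal arches, rose by 2.75 ± 0.39 (SE), and its partner Dlx1 was at 8.59, 8.69 and 7.69 in NCSC against 7.38, 7.18 and 7.32 in MSC. The Dlx1 difference of 1.03 ± 0.27 was not called without NCSC 1, NCSC 2, MSC 2 or MSC 3 (adjusted p = 0.0656, 0.06, 0.0579 and 0.0536) or without the filter (0.0978), in a range of 0.000329 to 0.0978 over all settings. Mitf, the master regulator of melanocytes, rose by 2.07 ± 0.19. Egr2, the regulator of myelination, was lower (-0.35 ± 0.11), and its call was lost without NCSC 1, NCSC 2, MSC 1 or MSC 3 (0.0692, 0.0964, 0.107 and 0.102) and without the filter (0.0797), in a range of 0.00331 to 0.107.

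Of 11 cofactors of the members measured 9 were kept, 2 higher, 2 lower and 5 not called, with a median difference of 0.17. With array weights 8 cofactors were called, against 4 here. Cited4 was at the lowest value on all arrays and Cited1 under the limit on all of them. Kctd15, which in zebrafish inhibits AP-2 activity and limits the crest, rose by 1.17 ± 0.23 (SE), at 10.47, 10.40 and 9.96 in NCSC against 9.31, 8.67 and 9.33 in MSC. Cited2, a coactivator of AP-2 factors, was lower (-1.10 ± 0.12). Among the Groucho corepressors, which forkhead and Pax factors recruit, Tle1 rose by 1.45 ± 0.15 and Tle4 was lower (-2.05 ± 0.24), while Tle2 and Tle3 were not called (0.17 ± 0.14 and -0.25 ± 0.10). Tle3 was called without NCSC 3 (adjusted p = 0.0135), without MSC 2 and NCSC 3 together (0.0191), with array weights (0.0069) and after quantile normalization (0.0491), in a range of 0.0069 to 0.183.

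Of 11 genes regarded as targets of Pax3, Pax7 or AP-2 factors in crest, melanocytes or muscle, 5 were kept, 4 of them called higher in NCSC and 0 lower, with a median difference of 1.21. Ret, the receptor of glial cell line-derived factors, was at least 142-fold higher, at 10.54, 10.92 and 11.97 in NCSC against 2.84, 3.22 and 2.84 in MSC. The scatter factor receptor Met rose by 1.21 ± 0.15 (SE), at 13.24, 13.17 and 12.84 in NCSC against 11.82, 12.07 and 11.72 in MSC, and the adhesion molecule Cdh2 rose by 0.67 ± 0.09. Mitf, on this list too, is given above, and Gch1 was not called (0.10 ± 0.40). The melanocyte enzyme Dct, the endothelin receptor Ednrb and the muscle factor Myf5 were at the lowest value on all arrays, and Kit, Cxcr4 and Fgfr4 stayed under the limit.

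**Figure D4:**
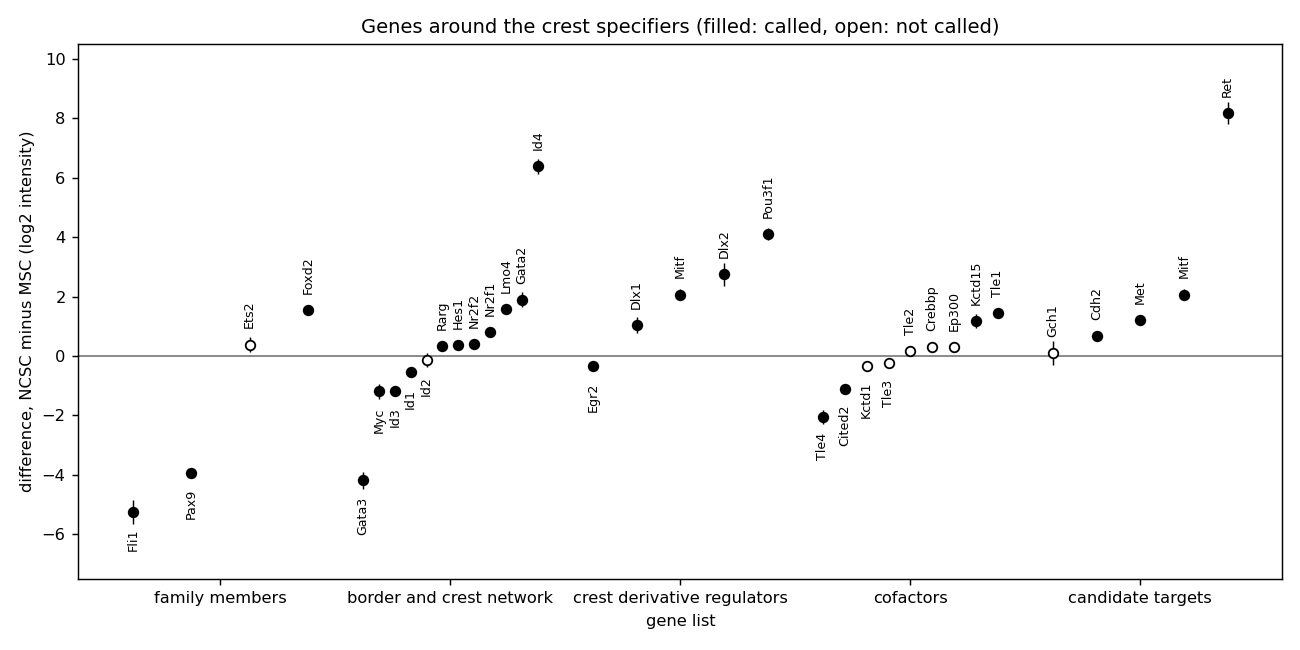
Difference NCSC minus MSC in log2 intensity (vertical axis) for the kept genes of 5 lists around the crest specifiers, with bars of 1 SE, filled points for called genes and open points for genes not called. Id4, Ret and Pou3f1 lie highest, at fitted values that rest on MSC arrays under the limit, and Fli1, Gata3 and Pax9 lie lowest. The values of Gata3 and Pax9 rest on NCSC arrays under the limit, as does that of Fli1 except for NCSC 3.

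Profiles like those of the members were sought among all kept probe sets, by the root mean square distance of log2 intensities over the 6 arrays. This measure compares levels of different probe sets and follows mostly the group means, and for Foxd3 and its nearest genes the MSC values lay under the limit and give no measured likeness. Nearest to Foxd3 was Id4 in another of its probe sets (distance 0.25), with means of 8.85 in NCSC and 2.48 in MSC, and then the motor protein gene Myo5b (0.29). The sorting receptor Sort1 lay nearest to Pax3 (0.21), at 9.64 in NCSC and 4.74 in MSC, followed by the amino acid transporter Slc43a2 (0.35). Next to Tfap2a were Lpcat2 (0.20), at 11.47 in NCSC and 7.23 in MSC, and Rftn2 (0.23). Ets1 had Mpzl1 (0.19) and Irf2bpl (0.20) as its nearest genes, and Msx1 had Tm2d2 and Tm2d1 (0.25 and 0.26).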

How the data were processed

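Expression was measured on 6 Affymetrix arrays, 3 of NCSC and 3 of MSC, labelled with the 3' IVT Express kit. The deposited table holds linear intensities, 1 per probe set, which the authors made with GCRMA (version not given in the sources used here), per the submitters' processing notes. The linear scale was read from the values, which run from 4.36 to 116597. The plan allowed for either scale, and log2 was taken before all tests, with no further normalization.

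Probe sets were named through the platform annotation, updated to RefSeq symbols by gene ID (34754 of 34958 with 1 gene matched), and 932 with several genes were not named. The 64 control probe sets were left out. Probe sets above 4 on at least 3 arrays entered a limma fit (limma 3.58.1, R 4.3.3; two-sided, Benjamini-Hochberg over 21004 probe sets, call at 0.05), and the fit was tested on simulated data. Where all arrays of the dimmer group were under the limit, folds are lower bounds, with values under 4 set to 4. The number of arrays limits precision.

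The members and lists were chosen with earlier results of these data known, and the lists were written from general knowledge of the pathway, with no source in these files. Named genes are all members, up to 5 called genes with the largest difference of each list, the kept family genes, and the 2 nearest profiles of each measured member. Markers of the fixed cell type lists are also named, and Mycn, Id1, Id2, Id3, Hes1, Nr2f2, Tle2, Tle3, Gch1 and the genes under the limit were named after their values were seen. Alternatives were other filters, floors, pseudocounts, normalizations, variance models, gene-level fits, a replicate block and leaving out arrays.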

Additional observations from a re-analysis of the deposited data

How the results depend on the processing

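Among the 11 kept member probe sets, 9 (Foxd3, the 3 of Pax3, the 2 of Tfap2a, and Ets1 1426725_s_at, 1452163_at and 1422028_a_at) had the same direction and call in every setting run. Ets1 1422027_a_at lost its call without the filter, and Msx1 was called in 11 of 17 settings. The number of member probe sets called was 11, and 7 where all arrays had to be above the limit, 5 with 1 probe set per gene and 9 without the filter, the first pair because fewer probe sets were tested. It was 10 to 11 with an array left out, and 10 without MSC 2 and NCSC 3 together, a setting added after seeing the data. The number of probe sets called over the whole array was 12362, and 6731 with 1 probe set per gene, 9924 without the filter, 15106 with array weights, 10277 to 13066 with an array left out and 14128 without MSC 2 and NCSC 3. Without those arrays the Ets2 difference reversed to -0.021 (adjusted p = 0.864, not called in either case), and the cause was not tested. Reversals of other differences that were not called were those of Id2 (0.14 with array weights, -0.29 to 0.14 with an array left out, reversed without NCSC 3, and 0.22, then called at adjusted p = 0.0405, without MSC 2 and NCSC 3) and of Gch1 (-0.27 to 0.40 with an array left out, reversed without NCSC 2 at -0.087 and without MSC 2 at -0.27). Over the members, the genes named by the rule, and Id1, Id2, Id3, Tle2, Tle3, Gch1 and Csf1r, 841 differences in alternative settings had the same direction and call, 23 were no longer called, 4 (all of Tle3) became called and 6 reversed. Intensities near the lowest value limit all folds of genes under the limit in MSC.

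Whether arrays with the same replicate number belong together is not known. Deviations of same-numbered NCSC and MSC arrays from their type's mean correlated at -0.0892, 0.052 and 0.0391. Between differently numbered arrays the correlations ran from -0.0896 to 0.0974. These values show no pairing but cannot exclude it, since each deviation is taken from the mean of only 3 arrays. With the replicate number as a block the number of member probe sets called was 10 and the number of probe sets called was 11293, with Msx1 (adjusted p = 0.059) and Fcer1g (0.0683) no longer called.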
